A study of Rattus norvegicus with 6 samples.

Results

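Brain capillary RNA of stroke-prone spontaneously hypertensive rats (SHRSP) given the ACE inhibitor lisinopril was compared with that of SHRSP controls. The arrays were chosen by their titles, 2 marked ACEI and 2 marked control, which is 4 of the 6 RG_U34A arrays of the series. The remaining pair came from rats given olmesartan, an angiotensin receptor blocker (ARB), and entered the model only through its spread. Its arrays were run on 1 day, whereas the control pair and the ACEI pair each spanned 2 days. The pooled spread behind each p-value therefore mixes both kinds. Of the 8799 probe sets on the array, the 59 manufacturer's controls were left out, and of the other 8740, the 5244 brightest were tested. These stood for 3186 genes.

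All rats were SHRSP, an inbred strain that develops hypertension and brain strokes by inheritance, and were 6 weeks old. Lisinopril was given at 6 mg/kg body weight per day. The labels also name 1% NaCl without saying which of the groups received it, so the control group is described here only as the rats titled control. The number of rats behind an array, pooling and the length of treatment are not given in the sources used here.

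Renin cuts angiotensinogen to angiotensin I, and angiotensin-converting enzyme (ACE), which sits on the surface of endothelial cells, cuts angiotensin I to angiotensin II. Angiotensin II acts mainly through the type 1 receptor to constrict vessels, and in the vessel wall it is also known to induce cytokines, adhesion molecules and matrix genes, in part through the transcription factor NF-kappa-B. ACE also breaks down bradykinin, so that an ACE inhibitor lowers angiotensin II and preserves kinins. The series asks how angiotensin II affects gene expression in cerebral microcapillaries.

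No probe set passed the threshold of a limma adjusted p under 0.05 (0 of 5244, 0.0%). At an unadjusted limma p under 0.05 there were 136 probe sets (2.59%), 63 of them higher with lisinopril (1.2%) and 73 lower (1.39%). That share is below the level of 0.05 itself, which is the share expected where no probe set differs. The balance of directions turned with the fit: 114 were higher and 82 lower with run day as a block, 88 and 57 without control 2, 24 and 121 without ACEI 1, and 758 and 314 without control 1. With 2 arrays against 2, an exact two-sided permutation test of a single value cannot go below p = 0.333. All differences below are therefore log2 differences, ACEI minus control, that did not pass the adjusted threshold, and "higher" and "lower" describe these 4 arrays. The lowest adjusted p, 0.148 by limma, belonged to Spp1.

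The proximal promoters of 4 lower genes are given here because Spp1 had the lowest p, and because Il1a, Cxcl2 and Cxcl10 were lower cytokine genes whose promoters held a match to a motif of NF-kappa-B or AP-1. Each line gives the 250 bases before the transcription start from RefSeq on the rat assembly GRCr8, 5′ to 3′ on the gene's strand. Capitals mark matches to the NF-kappa-B consensus GGGRNWYYCC or to the AP-1 motif TGANTCA, both searched on both strands. Here R is A or G, W is A or T, Y is C or T, and N is any base.
Spp1, osteopontin, chr14:5619805-5620054, minus strand: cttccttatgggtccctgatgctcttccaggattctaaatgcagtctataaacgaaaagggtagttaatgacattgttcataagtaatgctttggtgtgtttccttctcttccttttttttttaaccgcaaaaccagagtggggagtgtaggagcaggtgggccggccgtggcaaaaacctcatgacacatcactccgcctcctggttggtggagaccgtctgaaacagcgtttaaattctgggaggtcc
Il1a, interleukin 1 alpha, chr3:136990018-136990267, minus strand: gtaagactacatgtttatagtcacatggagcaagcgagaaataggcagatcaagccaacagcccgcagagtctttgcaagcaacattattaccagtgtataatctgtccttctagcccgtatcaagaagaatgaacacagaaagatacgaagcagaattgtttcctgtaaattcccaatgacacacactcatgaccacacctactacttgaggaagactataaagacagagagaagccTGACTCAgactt
Cxcl2, a neutrophil-attracting chemokine, chr14:17467256-17467505, minus strand: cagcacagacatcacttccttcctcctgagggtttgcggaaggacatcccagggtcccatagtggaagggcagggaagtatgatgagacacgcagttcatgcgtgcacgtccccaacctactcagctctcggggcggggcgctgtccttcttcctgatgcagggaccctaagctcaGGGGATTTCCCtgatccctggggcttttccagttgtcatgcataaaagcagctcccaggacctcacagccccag
Cxcl10, an interferon-induced chemokine, chr14:15988816-15989065, plus strand: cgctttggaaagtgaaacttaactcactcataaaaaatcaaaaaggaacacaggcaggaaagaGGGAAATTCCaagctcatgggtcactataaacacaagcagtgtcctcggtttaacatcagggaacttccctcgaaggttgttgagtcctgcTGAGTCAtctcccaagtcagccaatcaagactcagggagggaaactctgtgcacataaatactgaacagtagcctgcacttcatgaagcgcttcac

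The capitals in Il1a are an AP-1 match, those in Cxcl2 are a pair of overlapping NF-kappa-B matches, and Cxcl10 holds an NF-kappa-B match followed by an AP-1 match. Spp1 held no exact match to either string, nor did the windows of Il1b, Errfi1 and Icam1. Of 27457 rat promoters in the table, 3.52% held the NF-kappa-B consensus and 6.36% the AP-1 motif in the same window; among 2629 tested genes with a promoter the shares were 4.34% and 4.75%. A match describes letters in this window only, and a window without one may hold variants that these strings miss, such as TGGAAATTCC in that of Icam1. Alox15, Padi4 and Lgals3 were looked up as well and are named only.

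Spp1, which encodes the secreted cytokine and matrix protein osteopontin, read 3875 on control 1 and 4673 on control 2, in intensity units of the array, against 287 on ACEI 1 and 115 on ACEI 2. The groups did not overlap, and both controls lay far above both lisinopril arrays; of all probe sets tested, 11.9% had both lisinopril arrays below both controls and 11.6% above (13.0% and 10.7% of genes). The log2 difference was -3.97 ± 0.49 (SE of the model, n = 2 arrays per group), a fold of 15.6, with a limma unadjusted p of 2.8e-05 and an adjusted p of 0.148. On Alox15, a lipoxygenase that oxidises polyunsaturated fatty acids, the controls read 5332 and 8055 and the lisinopril arrays 500.2 and 369. The difference of -3.67 ± 0.54 had an adjusted limma p of 0.259. A second Alox15 probe set was also separated, with 7037 and 4196 on the controls and 26.1 and 378 with lisinopril, a difference of -4.57.

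Both genes of interleukin 1, the early fever and endothelial-activation cytokine, were lower. Il1b read 3427 and 9034 on the controls and 870.1 and 1798 with lisinopril, and Il1a read 2650.1 and 2968 against 939.5 and 619. The differences were -2.07 ± 0.60 and -1.76 ± 0.46, with unadjusted limma p-values of 0.00768 and 0.00446 and adjusted p-values of 0.992 for both. The groups did not overlap on these probe sets. The other probe sets were not all alike: for Il1b one had a difference of -1.75 and one of -0.75 with a higher value in the pair of the later run day, and for Il1a one had -2.19 and one below the brightness filter had 0.10.

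Of the other lower genes, Errfi1, a feedback inhibitor of the epidermal growth factor receptor, read 1946 and 3633 on the controls and 435 and 933 with lisinopril. Its difference was -1.91 ± 0.54; a second tested probe set gave -0.71, from -1.92 in the pair of the first run day and 0.50 in the other. Padi4, a granulocyte enzyme that converts arginine to citrulline in proteins, read 584 and 797 against 178 and 70.9 (-1.90 ± 0.48). These separations were of about the same size as that of Lgals3. Lgals3 encodes galectin-3, a sugar-binding protein of macrophages, and read 1070 and 1153 on the controls and 249 and 264 with lisinopril (-1.79 ± 0.44). Within each group its arrays lay close together.

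The genes with the clearest higher values were dim on the control arrays. Matk, a tyrosine kinase of brain and blood cells, read 193 and 26.3 on the controls and 1127 and 2024 with lisinopril (3.14 ± 0.58, adjusted limma p 0.664). Pkp4, an armadillo-repeat protein of cell junctions, read 112 and 107 on the controls and 1228 and 1168 with lisinopril (2.69 ± 0.58). Neither gene overlapped between groups. The synaptic vesicle GTPase Rab3a read 114 and 13.3 against 824 and 393 (2.19 ± 0.55), and the histone acetyltransferase Kat5 read 108 and 103 against 492 and 687 (1.78 ± 0.45). Pnck, a calmodulin-dependent kinase, read 167 and 130.4 against 660.3 and 784 (1.77 ± 0.51); its other probe sets, both below the brightness filter, gave 1.20 and -0.87. The control values of these genes lay between 13.3 and 193, where foreign-sequence control probe sets had medians of 24.2 and 25.2 on the control arrays.

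**Figure D1:**
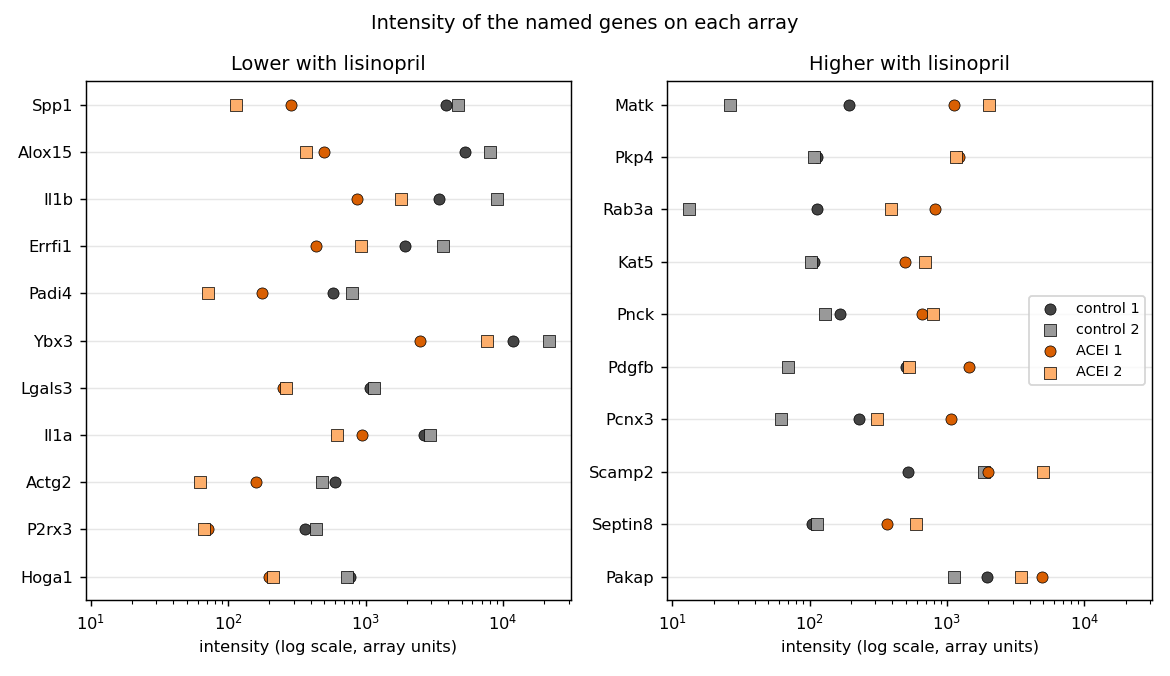
Deposited intensity (log axis, array units) of the named lower genes (left) and higher genes (right), 1 row per gene, with circles for the first run day and squares for the later one, dark and light grey for the controls and dark and light orange for lisinopril. In the Spp1 row the controls sit at 3875 and 4673 and the lisinopril arrays at 287 and 115; the control symbols of Matk, Rab3a and Kat5 sit below 200.

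The headers of the scanner runs allowed each lisinopril array to be set against a control of its own day. The arrays numbered 1 shared a run day, a chip lot and a fluidics protocol, and the arrays numbered 2 shared a later day with another lot and protocol. These pairs share no array. The first pair was close, with a correlation of 0.929 across probe sets and 7.74% of probe sets over 2-fold apart, while in the second pair the correlation was 0.770 and 34.5% were over 2-fold apart. Across the 5244 probe sets, which share each array and are not replicates, the differences of the pairs had a Pearson correlation of -0.125 and a Spearman correlation of -0.146, and 2275 (43.4%) had the same sign.

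Over 2-fold, 33 probe sets were higher in both pairs (0.629%), 49 were lower in both (0.934%) and 120 moved in opposite directions. The 82 with the same direction were 20.2% of those past 2-fold in the first pair and 4.53% of those in the second. Spp1, Alox15, Il1b, Il1a, Errfi1, Padi4 and Lgals3 were among the 49. They had been named from these same arrays by a rule that put both lisinopril arrays below both controls. That rule fixes the sign in both pairs, so their place among the 49 is not a separate check. Spp1 differed by -3.40 in the first pair and -4.54 in the second, and Alox15 by -3.20 and -4.15. Lgals3 had pair differences of -1.78 and -1.81, and Errfi1, at the probe set named here, of -1.95 and -1.86.

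By the smaller of the pair differences, the rule also named 4 further lower genes and 5 further higher genes. Ybx3, a cold-shock DNA- and RNA-binding protein, was bright and differed by -2.19 and -1.49. Actg2, the gamma actin of smooth muscle, differed by -1.46 and -1.92. P2rx3, an ATP-gated channel of sensory neurons, differed by -1.50 and -1.76, and Hoga1, a mitochondrial enzyme of hydroxyproline breakdown, by -1.57 and -1.45. On the higher side, Pdgfb, the growth factor by which endothelium recruits pericytes, read 501 and 69.7 on the controls and 1433 and 528 with lisinopril, with pair differences of 1.37 and 1.95. ACEI 2 lay only just above control 1 at that probe set. A second Pdgfb probe set read 1431 and 7.3 on the controls and 1586.5 and 335 with lisinopril. Its pair differences were 0.14 and 2.13, and there ACEI 2 lay far below control 1. Septin8, a cytoskeletal GTPase, differed by 1.24 and 1.75, the anchoring protein gene Pakap by 1.30 and 1.55, the vesicle carrier protein gene Scamp2 by 1.77 and 1.38, and Pcnx3 by 1.84 and 1.39.

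**Figure D2:**
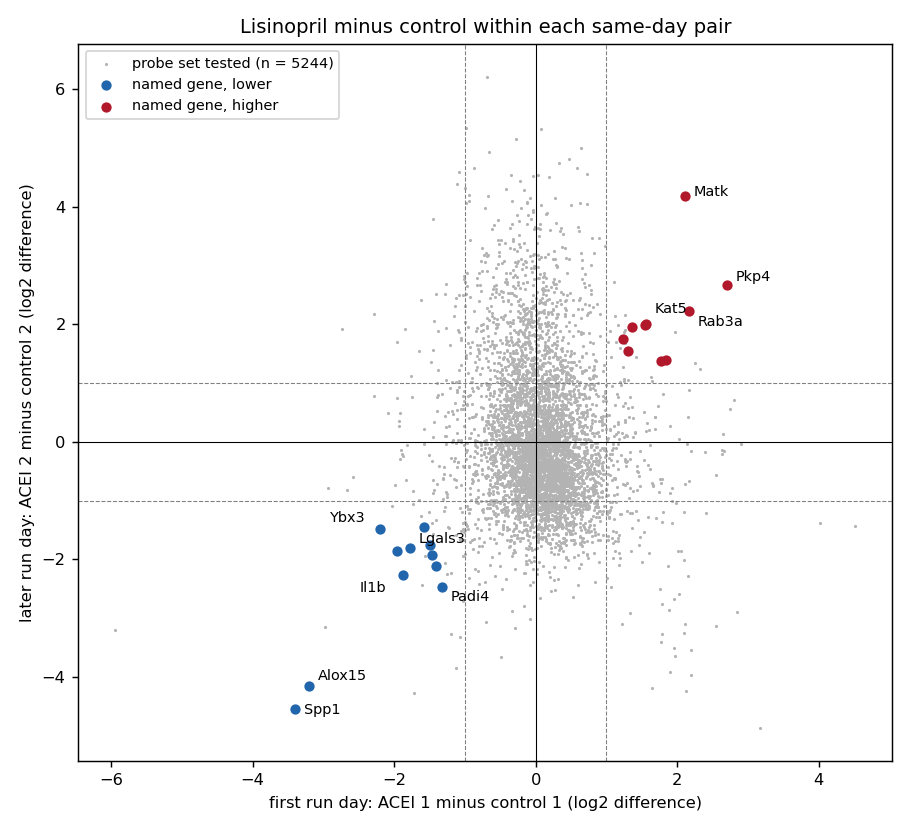
Log2 difference of ACEI 1 minus control 1 (x axis) against that of ACEI 2 minus control 2 (y axis) for 5244 probe sets in grey, with named lower genes in blue, named higher genes in red and dashed lines at 2-fold. The grey cloud is taller than it is wide, with 34.5% of probe sets past 2-fold on the y axis and 7.74% on the x axis, and Spp1 and Alox15 lie at the lower left.

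Control 2 stood apart from the other 3 arrays. On 966 probe sets (18.4%) it was over 2-fold beyond all of them, 725 below and 241 above, against 73 for control 1, 55 for ACEI 1 and 218 for ACEI 2. For Gapdh the signal at the 3′ end over that at the 5′ end, which tracks RNA and labelling quality, was 7.31 on control 2 and 0.966, 0.933 and 1.59 on control 1, ACEI 1 and ACEI 2; that of beta-actin was 3.15, 1.10, 1.04 and 1.35. Control 1 correlated with ACEI 2 at 0.911 and with control 2 at 0.747. Without control 2, with both lisinopril arrays against control 1, 84 probe sets were over 2-fold higher, 22 of them shared with the 33, and 56 were lower, 29 shared with the 49; the adjusted count was again 0, with 145 at an unadjusted p under 0.05. Without control 1, so that control 2 was the only control, 261 probe sets passed the adjusted threshold. The part of RNA quality in these counts was not tested.

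Probe sets of one gene often disagreed: of 881 genes with several tested probe sets, 455 (51.6%) had all differences of one sign, 545 in the first pair and 438 in the second. In the gene lists below each gene stands by its brightest probe set, and counts and medians hold for that choice. Over all genes tested, 44.4% were higher and 55.6% lower, and 19.7% and 23.4% were so in both pairs. Of the 3186 genes, 1803 were higher and 1382 lower in the first pair, and 1264 and 1920 in the second. Without control 2 these counts were 1522 and 1664. At an unadjusted limma p under 0.05, 0.879% were higher and 1.63% lower.

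The genes of the angiotensin system itself showed no common direction. Of 9 tested members, 5 were higher and 4 lower, where 44.4% of all genes were higher and 55.6% lower, 0 had an unadjusted p under 0.05, and the median difference was 0.05 against -0.07 over all genes tested. Ace, the target of lisinopril, read 9110 and 1346 on the controls and 7690 and 3123 with the drug. Its control arrays lay further apart than the groups, the difference was 0.46 ± 0.84 (unadjusted limma p 0.599), and without control 2 it was -0.88. Agt, which encodes angiotensinogen and is made by astrocytes in brain, read 2669 and 1683 against 3244 and 4824; the lisinopril arrays were both higher, with a difference of 0.87 ± 0.48 (unadjusted limma p 0.105).

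The type 1 receptor gene Agtr1a was dim, with 241 and 261 on the controls and 272 and 40.3 with lisinopril (-0.65 ± 0.57), and its other 3 probe sets were below the brightness filter, as was Agtr2. Among peptidases, Ctsd, a lysosomal aspartic protease, differed by 1.10 ± 0.58, and Thop1, which cuts angiotensin I and other short peptides, by 0.68 ± 0.51. Both differences came mainly from the later run day, at 2.03 and 1.12 against 0.17 and 0.23 on the first. The lowest value of the kinin genes was that of Kng2, a kininogen gene, at 215 and 369 on the controls and 70.6 and 50.3 with lisinopril. It did not overlap between groups (-1.32 ± 0.46, unadjusted limma p 0.020). Of 6 kinin and ACE-substrate genes it was the only one with an unadjusted limma p under 0.05. Over all genes, 1.63% were lower at that level. Bdkrb1, the kinin receptor induced by inflammation, differed by 0.95 ± 0.70, Cpd, a carboxypeptidase, by 0.67 ± 0.89, and Tac1, the precursor of substance P, by 0.62 ± 0.58. Bdkrb2, the main bradykinin receptor, was below the brightness filter.

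Cytokine, chemokine and NF-kappa-B genes were lower on the first run day. Of 25 tested, 22 were lower in the first pair, with a median of -0.82, and 12 in the second, with a median of 0.08. Over all genes the medians were 0.07 and -0.24, and 1382 and 1920 of 3186 were lower. With both pairs together, 15 of the 25 were lower and 10 higher, with a median of -0.40. In both pairs 11 were lower, where 23.4% of all genes were. Without control 2, 21 of the 25 were lower, where 1664 of all 3186 genes were, and the median was -0.65. The members with an unadjusted limma p under 0.05 were 4 lower genes and 0 higher ones, where 1.63% of all genes were lower and 0.879% higher at that level.

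These 4 were Il1a, Il1b, Cxcl2 and Cxcl10. Cxcl10, the interferon-induced chemokine, read 703 and 684 on the controls and 208 and 218 with lisinopril (-1.37 ± 0.52), and Cxcl2 read 2004 and 2105 against 785 and 1096 (-1.07 ± 0.45). The arrays of each group were close on both genes and the groups were apart. Ccl2, the monocyte chemoattractant, read 894 and 4422 against 468 and 889.7, so that ACEI 2 lay beside control 1 (-1.51 ± 0.85). Some members differed in sign between the pairs. Tgfb1, a growth factor that damps inflammation and raises matrix synthesis, differed by -0.02 in the first pair and 2.96 in the second, where control 2 read 78.4 and the other 3 arrays 1224 or more. Nfkbia, an inhibitor of NF-kappa-B and one of its targets, differed by -1.59 and 0.22, with -1.45 and 3.79 at a second probe set, and Tnf, an early inflammatory cytokine, by -1.08 and 2.50.

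Among leukocyte adhesion genes Icam1, the endothelial ligand for leukocyte integrins, read 5542 and 5525 on the controls and 1706 and 2742 with lisinopril. The controls were nearly equal, both lisinopril arrays were lower, and the difference was -1.32 ± 0.46 (unadjusted limma p 0.020). A second Icam1 probe set had 2136 and 286 on the controls against 483 and 538, a difference of -0.61 with opposite signs in the pairs. Vcam1, the partner of Icam1 on activated endothelium, differed by 0.27 ± 0.46, and by -0.02 at a second probe set. Of the 10 tested members of this list 8 were lower, where 55.6% of all genes were, and 1 was lower with an unadjusted limma p under 0.05, where 1.63% were. The median was -0.25, against -0.07 over all genes.

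Immediate early genes, which cells switch on within minutes of a stimulus and also during tissue dissociation, differed between the pairs. Of 25 tested, 19 were lower in the first pair (median -0.51) and 11 in the second (median 0.13), and without control 2, 24 were lower (median -0.56). Of all 3186 genes, 1382 were lower in the first pair, 1920 in the second and 1664 without control 2. Errfi1 was the only member of the list with an unadjusted limma p under 0.05, where 1.63% of all genes were lower at that level. Nr4a1, an orphan nuclear receptor, was lower in both pairs, by -0.91 and -0.98, at 10250.2 and 11120.3 on the controls against 5419.5 and 5591 with lisinopril. A second Nr4a1 probe set differed by -1.47 in the first pair and 1.37 in the second. Dusp1, a phosphatase that ends MAP kinase signals, Ier3 and Klf6 went the other way in the second pair, with differences of 3.30, 2.88 and 1.97 where control 2 read 1081, 694 and 69.4. In the first pair they differed by -0.76, -0.80 and 0.16. Of 2 further Dusp1 probe sets, one gave 6.22 in the second pair and one 0.45.

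**Figure D3:**
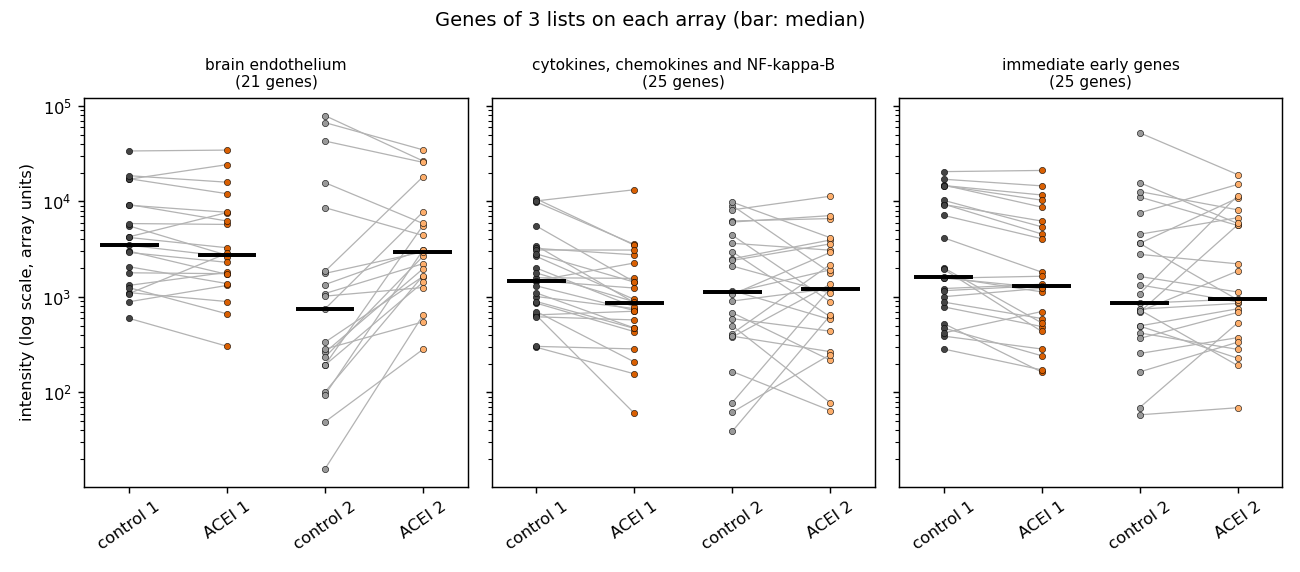
Deposited intensity (log axis, array units) of the tested genes of 3 lists on each array, 1 point per gene with grey lines joining the arrays of a same-day pair and a bar at the median. Endothelial genes spread widely on control 2, with a median of 747 against 3477 on control 1, 2728 on ACEI 1 and 2961 on ACEI 2, while most cytokine genes are lower on ACEI 1 than on control 1.

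Genes of neutrophils, mast cells and lymphocytes were mostly lower. Of 12 tested, 10 were lower and 8 were lower in both pairs, where 55.6% and 23.4% of all genes were. The median was -0.40. At an unadjusted limma p under 0.05, 3 were lower, where 1.63% of all genes were. A lower level in a tissue extract can come from fewer cells of a type or from less RNA per cell, which cannot be told apart here. Besides Alox15 and Padi4, S100a9, a calcium-binding protein of neutrophils, had an unadjusted limma p under 0.05, at 4805 and 5309.6 on the controls and 1143.5 and 3158 with lisinopril (-1.36 ± 0.57). Its partner S100a8 read 2686 and 2679 against 962 and 1586 (-1.06 ± 0.59). The summed intensity of the 12 genes was 17353 and 20418 on the controls and 6394.5 and 7643 with lisinopril. Alox15, S100a8 and S100a9 made up most of it on the controls: the other 9 genes summed to 4530.3 and 4375 on the controls and 3789 and 2529.9 with lisinopril.

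Red cell genes were lower as well, with 7 of 7 tested members lower, 5 of them in both pairs, where 23.4% of all genes were. Their median was -1.07. Alas2, the first enzyme of heme synthesis in red cells, read 10011 and 9087 on the controls and 2941 and 4310 with lisinopril (-1.40 ± 0.60). Gata1, the erythroid transcription factor, read 368 and 406 against 161 and 98.3 (-1.13 ± 0.45), and Epb41, a red cell membrane protein, read 753 and 1168 against 478 and 169.6 (-1.42 ± 0.58). These 3 had unadjusted limma p-values under 0.05, where 1.63% of all genes were lower at that level. The beta globin Hbb did not separate, at 21900.1 and 90197 on the controls and 34508 and 37488 with lisinopril. Alpha globin had no tested probe set of a single gene, and the summed intensity of the 7 genes was 51465 and 165465 on the controls and 49366.5 and 68087 with lisinopril. Most blood cell genes tested were therefore lower beside the cytokine genes, though the red cell sum of control 1 lay between those of the lisinopril arrays. The part of the blood cell genes in the cytokine result was not tested.

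Microglia and macrophage genes divided. Of 17 tested, 14 were lower in the first pair and 6 in the second, and the medians were -0.73 and 0.27. Over both pairs the median was 0.01, and without control 2, 14 were lower. Of all 3186 genes, 1382 were lower in the first pair, 1920 in the second and 1664 without control 2. Lgals3 and Cd14, the lipopolysaccharide co-receptor, had unadjusted limma p-values under 0.05, where 1.63% of all genes were lower at that level. Cd14 read 959 and 1089 on the controls and 476 and 243 with lisinopril (-1.36 ± 0.51). Bright members differed from each other. C1qb, a complement subunit made by microglia, differed by -1.23 in the first pair and 0.27 in the second, with -1.02 and 2.82 at a second probe set, and Lyz2, the lysozyme of macrophages, by -0.94 and 0.06. The major histocompatibility invariant chain gene Cd74 differed by -0.99 and 1.43. P2ry12, a purine receptor of resting microglia, and Ctss, a lysosomal protease, were among the 3 members that were not lower in the first pair, at 0.16 and 0.15, with -0.14 and -0.21 in the second. Ptprc, carried by all leukocytes, differed by -0.43 and -1.13, and by -1.27 and 2.68 at a second probe set.

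Extracellular matrix genes were lower mainly on the later run day. Of 35 tested, 27 were lower, 16 in both pairs, where 55.6% and 23.4% of all genes were. The median was -0.36, with -0.07 in the first pair and -0.90 in the second. Without control 2 it was -0.30 with 27 lower, where 1664 of all 3186 genes were. At an unadjusted limma p under 0.05, 4 were lower and 1 higher, where 1.63% and 0.879% of all genes were. Apart from Spp1, the lower members with an unadjusted limma p under 0.05 were Timp1, an inhibitor of matrix metalloproteinases, Mgp, an inhibitor of vessel calcification, and Plaur, the urokinase receptor. Timp1 read 1917 and 6625 on the controls and 1138 and 712 with lisinopril (-1.89 ± 0.79), and a second probe set had 528 and 4431 against 97.7 and 144. Mgp read 11240 and 38058 against 5795 and 7605 (-1.63 ± 0.62), and Plaur 989.9 and 282 against 90.9 and 157 (-1.58 ± 0.60). On Timp1 and Mgp control 2 was the highest array, and on Plaur control 1 was. The only higher member at that level was Bcan, a brain proteoglycan, at 1614 and 510.1 against 2775 and 3731 (1.71 ± 0.59). The fibrillar collagen genes Col1a1, Col1a2 and Col3a1 differed by 0.82, -0.14 and 0.01 on the first run day and by -1.49, -2.08 and -1.08 on the later one. Of the other tested probe sets, 3 of Col1a1 ran from -0.82 to 0.12 on the first day and from -1.41 to 0.12 on the later one, and 1 of Col3a1 gave 0.94 and -0.10.

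Some contractile genes of smooth muscle were lower in both pairs at their brightest probe set, though other probe sets of these genes differed. Acta2, the alpha actin of smooth muscle, read 19511 and 23120 on the controls and 9605 and 7200 with lisinopril (-1.34 ± 0.45, unadjusted limma p 0.016). Tagln, an actin-binding protein of the same cells, read 4516 and 7698 against 2189 and 2616 (-1.27 ± 0.48), while a second probe set differed by -1.43 and 0.34 in the pairs. With Actg2, 3 of the 19 tested members were lower at an unadjusted limma p under 0.05, where 1.63% of all genes were. The 2 other probe sets of Acta2 gave 0.36 and 0.15, and Myl9, a smooth muscle myosin light chain, differed by -0.72 at its brightest probe set and by 1.92 at another, whose unadjusted limma p of 0.00262 was lower than those of the 3. Pdgfrb and Cspg4, which mark pericytes, differed by -0.04 ± 0.59 and 0.09 ± 0.45. Over the list, 11 were lower and 8 higher, with a median of -0.19. Cald1, an actin- and myosin-binding protein, had the widest positive value at 1.51 ± 0.80, with control 2 at 32.9.

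Endothelial markers were used to check the tissue label. The barrier glucose transporter Slc2a1 read between 33690.7 and 66763 on the 4 arrays, alkaline phosphatase Alpl between 15870.4 and 42808, and the organic anion transporter Slco1a4 between 17074 and 79016, which puts genes of the blood-brain barrier among the bright probe sets of every array. Other defining markers, however, were low on control 2. Pecam1, the junctional adhesion molecule of all endothelium, read 5538 and 194 on the controls and 2728 and 5564 with lisinopril. Cav1, the coat protein of caveolae, read 2918 and 94.4 against 2300.1 and 3077. The olmesartan arrays, also of the later run day, read 553 and 317 on Pecam1 and 292 and 173 on Cav1. Tfrc read 938 and 766 on them, 1788 on control 1 and 101 on control 2. The part of run day in these values was not tested. Control 2 minus control 1 had a median of -2.32 over the 21 tested markers, against 0.10 over all genes.

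The lisinopril difference of the endothelial list changed sign without control 2. In the first pair 15 of 21 members were lower, with a median of -0.28, and in the second 16 were higher, with a median of 1.42. With both pairs the median was 0.82 with 15 higher, and without control 2 it was -0.22 with 14 lower. Of all 3186 genes, 1382 were lower in the first pair, 1264 higher in the second and 1664 lower without control 2. Slc16a1, a monocarboxylate transporter of the barrier, was the only member of the list with an unadjusted limma p under 0.05. Over all genes, 0.879% were higher at that level. Slc16a1 read 4255 and 747 on the controls and 7636 and 7724 with lisinopril (2.03 ± 0.72), and both pairs gave a higher value. Its difference was 0.84 without control 2, 3.21 without control 1, and 1.24 at a second probe set. Nos3, the endothelial nitric oxide synthase, differed by 0.99 ± 0.78, Edn1, the vasoconstrictor endothelin, by 1.15 ± 0.95, Pecam1 by 1.66 ± 1.17, and Tfrc, the transferrin receptor, by 1.58 ± 0.91. Against control 1 alone these were -0.31, -0.48, -0.50 and -0.07. Slc2a1 itself differed by -0.46 ± 0.51, with 0.03 in the first pair and -0.94 in the second, and by 0.27 at a second probe set.

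Most markers of the surrounding brain tissue were higher with lisinopril. Among astrocyte genes 10 of 12 were higher, 7 in both pairs, and among neuronal genes 21 of 28 were higher, 14 in both pairs; 19.7% of all genes were higher in both. The medians were 0.37 and 0.50, and 0.64 and 0.57 without control 2. Of 11 oligodendrocyte genes 8 were higher, 5 in both pairs, with a median of 0.40. S100b, a calcium-binding protein of astrocytes, read 3786 and 4552 on the controls and 7557 and 8196 with lisinopril (0.91 ± 0.45), and Slc1a3, a glutamate transporter, read 2752 and 3793 against 4976 and 5197 (0.64 ± 0.48). The groups did not overlap on either gene. Aldoc, the brain aldolase, differed by 1.48 ± 0.61, mainly from the later run day, with 0.28 in the first pair and 2.68 in the second. A second Aldoc probe set gave 0.47 and 4.81, with 142 on control 2. Clu, a secreted chaperone, differed by 0.44 ± 0.44.

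Of the 28 neuronal genes, Rab3a and Uchl1, a neuronal deubiquitinase, had unadjusted limma p-values under 0.05. Over all genes, 0.879% were higher at that level. Uchl1 read 409 and 588 on the controls and 955 and 1746 with lisinopril (1.25 ± 0.49), and its 2 other probe sets gave 1.08 and 1.77. Ina, a neurofilament gene, and Gabrb2, a GABA receptor subunit, differed by 2.13 and 2.39 on the first day and by -0.03 and -0.17 on the later one. Mobp, a myelin gene, read 664 and 900.4 against 1635 and 1920 (1.11 ± 0.45), though another of its probe sets gave -0.50. Mbp, the main myelin protein gene, differed by 2.64 ± 1.09, with 234 on control 2 and at least 5492 on the other 3 arrays compared. The olmesartan arrays read 626 and 669 on Mbp. The summed intensity of the 28 neuronal genes was 28862 and 37282 on the controls and 37929.6 and 40582 with lisinopril, and that of the 12 astrocyte genes 76899 and 154305 against 106786.5 and 135053. Most neural markers were thus higher, beside mostly lower blood cell genes and the lower members of the inflammatory lists. The part of the neural markers in those results was not tested.

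**Figure D4:**
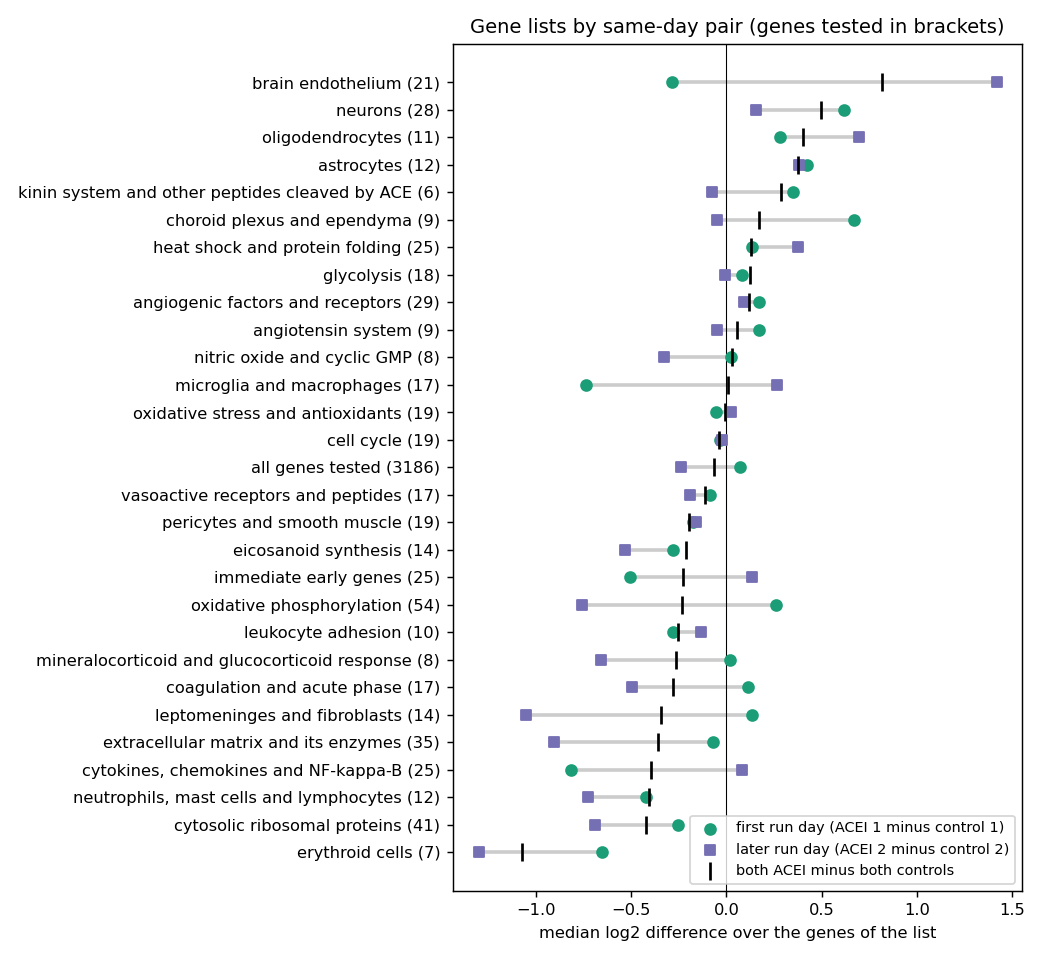
Median log2 difference of each gene list, with the number of genes tested in brackets, for the first run day (green circles), the later run day (violet squares) and both ACEI minus both controls (black ticks). The red cell list lies lowest at -1.07 with both pairs below 0, the endothelial list runs from -0.28 to 1.42, and the astrocyte list has both pairs near 0.4.

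The main housekeeping lists had lower medians on the later run day than on the first. So did all genes tested, at -0.24 against 0.07. Oxidative phosphorylation genes had a median of 0.26 in the first pair, where 45 of 54 were higher, and of -0.76 in the second, where 43 were lower. Control 2 minus control 1 had a median of 1.11 over this list. Against control 1 alone its median was 0.34, with 47 of 54 higher, where 1522 of all 3186 genes were. Cytosolic ribosomal protein genes had medians of -0.25 and -0.69, with 30 and 29 of 41 lower, and against control 1 alone their median was 0.04. Of all 3186 genes, 1803 were higher and 1382 lower in the first pair, and 1920 were lower in the second. Among further named genes, Hmox1, the stress-induced enzyme of heme breakdown, read 3417 and 2236 on the controls and 1547 and 1737 with lisinopril (-0.72 ± 0.48), and its groups did not overlap at this probe set. A second Hmox1 probe set gave 0.66, with 44.5 on control 2. Gch1, which makes the cofactor of nitric oxide synthases, read 1723 and 3529 against 681 and 1229.9 (-1.34 ± 0.53, unadjusted limma p 0.034), with -0.37 at a second tested probe set.

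Beside these values stand those of the olmesartan arrays, which share both controls with them and so are not independent. Both olmesartan arrays came from the later run day and its chip lot, while the controls spanned both days. Their foreign-sequence controls had medians of 91.4 and 80.9, against 24.2 and 25.2 on the control arrays. The part of run day and background in the olmesartan values, above all those of dim genes, was not tested. Olmesartan minus control was -3.50 for Spp1, -3.73 for Alox15, -1.90 for Il1b, -2.62 for Lgals3, -1.42 for Icam1 and -1.27 for Acta2. For Il1a, Errfi1 and Padi4 it was -0.91, -0.95 and -0.87, where lisinopril gave -1.76, -1.91 and -1.90. It was 0.82 for P2rx3 and 0.10 for Hoga1, both lower with lisinopril. For Matk and Pkp4 it was 0.72 and 0.85, where lisinopril gave 3.14 and 2.69. For Rab3a, Pnck and Kat5 it was 1.71, 1.54 and 0.49, where lisinopril gave 2.19, 1.77 and 1.78. The differences between the drugs were not tested here.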

How the data were processed

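The deposited table gave 1 intensity per probe set and array on a linear scale, with no detection calls; the authors' software, background correction and scaling are not given in the sources used here. Trimmed means of the arrays lay between 997.7 and 1002, so no normalization between arrays was added. Run day, chip lot and fluidics protocol, read as other text settings, were taken per the file headers. Probe sets with a single gene symbol in the platform annotation were named (7006 of 8740); 308 with several symbols were named by none.

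Values were taken as log2(intensity + 90), which shrinks differences of dim genes; the offset is the median of values above 0 divided by 4 and rounded. The dimmest 40% of probe sets were left out. limma 3.58.1 in R 4.3.3 fitted 1 mean per group to all 6 arrays (3 residual, 5.49 prior degrees of freedom), p-values being two-sided and adjusted by Benjamini-Hochberg, with a threshold of 0.05. Fold is 2 to the log2 difference. Each gene in a list was given its probe set with the highest mean. Python 3.11.15, pandas 2.3.3 and matplotlib 3.10.9 made tables and figures.

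Named genes were up to 14 per direction by size at an adjusted p under 0.05, then at an unadjusted p under 0.01 with both ACEI arrays beyond both controls; up to 10 per direction by the smaller same-day difference; a fixed set including Ace, Agt, Nos3, Icam1 and Acta2 (Gapdh had no probe set of its own); and up to 4 members per list by size, of which only those of the lists described are given. Others, such as Cxcl2, Tagln, Tnf and Nr4a1, were chosen after their values were seen. The members and the 28 lists were chosen with earlier results of these data known. Nothing in the labels says that arrays of a group came from separate rats, so p-values measure the spread between these arrays, which may be technical. The 2 arrays per group limit the precision.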

Additional observations from a re-analysis of the deposited data

How the results depend on the processing

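In the 15 other fits, 91 named genes gave 1341 alternative differences; 1280 kept their direction and side of the threshold, 24 passed the adjusted threshold where the reported value did not, and 37 of 27 genes changed sign. The adjusted count was 0 in the reported fit. It was 3 with an offset equal to the median, where 2 probe sets of Alox15 and that of Spp1 passed, and 0 to 261 when each array was left out in turn, with 261 only without control 1. The count at an unadjusted limma p under 0.05, reported as 136, was 207 without the filter and 68 to 1072 with 1 array left out. The adjusted limma p of Spp1 ran from 4.9e-05 to 0.999 over its alternatives, the lowest being that of the 4 arrays alone with a replicate block.

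The replicate numbers did not pair the samples by the check of deviations (correlation 0.045 between control and ACEI arrays), although number and run day coincide in these groups. A replicate block let 2 probe sets pass the adjusted threshold and 206 the unadjusted one, 132 higher and 74 lower. In the 4 arrays alone with this block, 7 and 241 passed, on 1 residual degree of freedom, the 241 being 194 higher and 47 lower. The prior degrees of freedom of that fit were infinite, so all probe sets were given 1 common spread and its p-values follow the size of the difference alone. With the run day as a block 0 and 196 passed. In the 4 arrays alone without a block, where the olmesartan pair adds nothing to the spread, 101 passed the unadjusted threshold.

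Counts past 2-fold moved with the offset and filter. Those lower in both pairs were 74 and those opposite 197 without an offset; with an offset equal to the median, 10 were higher, 20 lower and 53 opposite; with 60% of probe sets left out, 13, 32 and 78. Against control 1 alone, a comparison chosen after the data had been seen, 84 were higher and 56 lower.

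Of list medians, that of the angiotensin list was 0.67 with the 60% filter, the kinin list -0.16 without a filter, leukocyte adhesion -0.41 without an offset, and neutrophils, mast cells and lymphocytes -1.06 with the 60% filter. That of pericytes and smooth muscle was -0.17 with an offset equal to the median, -0.23 without a filter and 0.080 when the tested probe sets of each gene were averaged. For astrocytes the corresponding values were 0.32, 0.34 and 0.43, with 0.41 without an offset and 0.33 after quantile normalization. With each array left out in turn, medians ran from -0.18 to 0.43 for the angiotensin list, -0.11 to 0.25 for kinins, -0.37 to 0.028 for leukocyte adhesion, -0.32 to 0.029 for pericytes and smooth muscle, 0.28 to 0.64 for astrocytes, -0.63 to -0.23 for neutrophils, mast cells and lymphocytes, -0.56 to 0.31 for immediate early genes and -0.93 to 0.04 for ribosomal proteins.

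Genes that changed sign did so with 1 array left out, and Ctss and Hbb also by scaling: 0.45 and 0.49 after quantile normalization and 0.27 and 0.044 after cyclic loess. With each array left out in turn, differences ran from -0.88 to 1.80 for Ace, -1.39 to 0.084 for Agtr1a, -1.08 to 0.12 for Alpl, -0.026 to 1.93 for Bdkrb1, -0.13 to 3.90 for Cav1, -1.29 to 0.33 for C1qb, -0.63 to 1.08 for Cd74, -0.98 to 0.32 for Col1a1, -0.84 to 2.18 for Cpd, -0.069 to 0.24 for Cspg4, -0.39 to 0.32 for Ctss, and -0.56 to 3.10 for Dusp1. They ran from -0.48 to 2.78 for Edn1, -1.32 to 0.71 for Hbb, -0.56 to 2.64 for Ier3, -0.42 to 2.55 for Klf6, -0.31 to 2.30 for Nos3, -0.24 to 0.26 for P2ry12, -0.51 to 0.43 for Pdgfrb, -0.50 to 3.81 for Pecam1, and -0.95 to 0.036 for Slc2a1. For Slco1a4 the range was -1.64 to 0.57, for P4hb -0.24 to 1.27, for Tfrc -0.066 to 3.23, for Tgfb1 -0.19 to 3.13, for Tnf -0.89 to 2.31 and for Vcam1 -0.050 to 0.60. The causes were not tested. Values near the foreign-sequence controls, such as those of Matk and Rab3a on control 2, limit the size of their differences.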

Other observations

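Tgfb3, a growth factor of the transforming growth factor beta family, read 591 and 942 on the controls and 246 and 67.6 with lisinopril (-1.87 ± 0.66, unadjusted limma p 0.020), with -0.33 at a second probe set, and Lepr, the leptin receptor, read 62.9 and 261 against 592 and 379.8 (1.29). At the brightest probe set of each gene, they were the only ones of 29 angiogenic genes with an unadjusted limma p under 0.05. At that level were 0 of 25 heat shock and folding genes and 0 of 19 cell cycle genes, with list medians of 0.13 and -0.04. Over all genes, 1.63% were lower and 0.879% higher at that level. Second probe sets of the folding genes Ppib and P4hb were at it, with differences of 1.63 and 2.13 and unadjusted limma p-values of 0.0125 and 0.035. At its brightest probe set Ppib differed by 1.26 ± 0.62, and Pdia3, a protein disulfide isomerase, by 1.64 ± 0.89, with 0.30 in the first pair and 2.97 in the second.

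Genes outside the lists that were over 2-fold apart in both pairs included Car4, a membrane carbonic anhydrase of brain capillaries, at 1678 and 1546 on the controls and 4136 and 7202 with lisinopril. Spry1, a feedback inhibitor of receptor tyrosine kinases, read 2980.2 and 2837 against 1027 and 1029. Olr1, the endothelial receptor for oxidised low-density lipoprotein, was lower at 2 probe sets, by -1.56 and -1.51. These were chosen after their values were seen.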
